A study of Mus musculus with 15 samples.

Results

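The lipid-associated macrophage genes Gpnmb, Trem2, Cd9, Spp1, Lgals3, Mmp12, Atp6v0d2 and Fabp5 were taken by symbol from RNA sequencing of mouse periprostatic fat, the white adipose tissue around the prostate. All 8 symbols were found among the 23995 gene symbols listed. The RNA came from 15 male mice of the strain C57BL/6J, with 1 library per mouse and 5 mice per group. HFD estradiol mice were fed 60 kcal% fat, the high-fat diet, and were implanted under the skin with 0.25 mg of 17β-estradiol, an estrogen, in a form released over 60 days. HFD placebo mice received this diet and a hormone-free implant. LFD mice were fed 10 kcal% fat, the low-fat diet, without any implant, so diet and implant differ together between LFD and the other groups. In all groups the diets began at 6 weeks of age, implants followed 12 weeks later in the HFD groups, and fat was taken 8 weeks after that, at 26 weeks of age.

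Lipid-associated macrophages are macrophages described in obese adipose tissue of mice and humans, where they gather around dying adipocytes and take up their lipid. The lipid receptor Trem2 is needed for this state in mice, and the cells carry large amounts of lysosomal and lipid-handling proteins. The genes fall into roles that order the results: receptors and membrane proteins (Trem2, Gpnmb, Cd9), a subunit of the lysosomal proton pump (Atp6v0d2), secreted or carbohydrate-binding proteins (Lgals3, Spp1, Mmp12) and an intracellular fatty acid carrier (Fabp5). Some of them are not particular to macrophages. Fabp5 is also made by adipocytes and endothelial cells, and Cd9 by many cell types.

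All 8 genes are protein coding in the GENCODE annotation of GRCm38, the assembly of mm10. Gpnmb lies at chr6:49036546-49070929 on the plus strand and Cd9 at chr6:125460266-125494791 on the minus strand. Trem2 lies at chr17:48346401-48354147 and Mmp12 at chr9:7344381-7369499, both on the plus strand. Lgals3 lies at chr14:47367751-47386160 and Spp1 at chr5:104435118-104441050, both on the plus strand. Atp6v0d2 lies at chr4:19876841-19922605 on the minus strand and Fabp5 at chr3:10012548-10016607 on the plus strand. The 8 genes are on 7 chromosomes, and the pair on chromosome 6 is far apart.

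The 250 bases before the annotated start are shown for Gpnmb, Trem2 and Mmp12, which moved together across libraries as described further on. They are from RefSeq on GRCm38.p6, plus strand, 5′ to 3′, at chr6:49036268-49036517 for Gpnmb, chr17:48346151-48346400 for Trem2 and chr9:7344147-7344396 for Mmp12. Capitals mark matches to GAGGAA, the core bound by the macrophage factor PU.1 (read TTCCTC on the other strand). They also mark matches to TGANTCA, a relaxed form of the AP-1 motif with any base allowed at the centre.
Gpnmb: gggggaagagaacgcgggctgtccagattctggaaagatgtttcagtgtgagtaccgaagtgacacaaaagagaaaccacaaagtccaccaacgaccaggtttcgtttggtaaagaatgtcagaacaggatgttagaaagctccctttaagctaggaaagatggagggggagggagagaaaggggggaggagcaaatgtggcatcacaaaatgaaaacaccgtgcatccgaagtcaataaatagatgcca
Trem2: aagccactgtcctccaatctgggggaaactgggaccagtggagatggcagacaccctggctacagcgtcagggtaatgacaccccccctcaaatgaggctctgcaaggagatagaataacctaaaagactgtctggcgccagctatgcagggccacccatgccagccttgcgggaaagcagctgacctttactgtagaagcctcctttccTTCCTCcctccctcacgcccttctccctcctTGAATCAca
Mmp12: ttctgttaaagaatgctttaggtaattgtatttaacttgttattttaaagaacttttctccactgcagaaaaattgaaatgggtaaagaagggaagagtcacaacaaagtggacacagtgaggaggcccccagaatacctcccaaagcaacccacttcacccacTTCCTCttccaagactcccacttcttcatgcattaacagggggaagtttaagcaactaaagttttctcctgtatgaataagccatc
Both strands were searched. GAGGAA was found in Trem2 with its first base at position -40 from the start, in Mmp12 at -86 and in Spp1 at -113, and it is present in 23.3% of 32851 mouse promoter windows of this length. TGANTCA was found in Trem2 at -9, as TGAATCA with A at the centre, and is present in 6.75% of the windows. The E-box CATGTG, of the kind bound by Mitf, was found in Cd9 alone, and is present in 12.3% of the windows. The E-box CACGTG, present in 6.02% of the windows, was in none of the 6 windows matched, those of Gpnmb, Trem2, Cd9, Spp1, Lgals3 and Mmp12. None of the 4 motifs was in the windows of Gpnmb and Lgals3. The Lgals3 window, at chr14:47373610-47373859, lies inside the gene span given above and not before its first base. The windows of Mmp12 and of Cd9, at chr6:125494761-125495010, run partly into their gene spans. Positions count from the RefSeq start and not from those spans. A match is a description of these letters and not a binding site.

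Values are given as scaled FPKM, the deposited fragments per kilobase of transcript relative to library size, divided by a factor per library that sets the typical gene to the same level. Deposited FPKM summed to 34449 to 105910 per library. The factors ran from 0.481 to 3.23, with the highest in HFD placebo libraries 4 and 5. The deposited tables give no counts, and from the spacing of low values 1 unit of scaled FPKM for a 2 kb transcript was estimated to correspond to 41.0 to 107 fragments in HFD estradiol, 39.2 to 248 in HFD placebo and 22.9 to 44.9 in LFD. All HFD estradiol libraries were on sequencing lane 6 and all LFD libraries on lane 5, while HFD placebo libraries 1 to 3 were on lane 5 and 4 and 5 on lane 6. Adiponectin (Adipoq), a defining adipocyte product, was at 139 to 187 scaled FPKM in HFD estradiol, 58.4 to 116 in HFD placebo and 129 to 192 in LFD. In bulk tissue more cells of a type and more RNA per cell cannot be told apart.

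**Figure D1:**
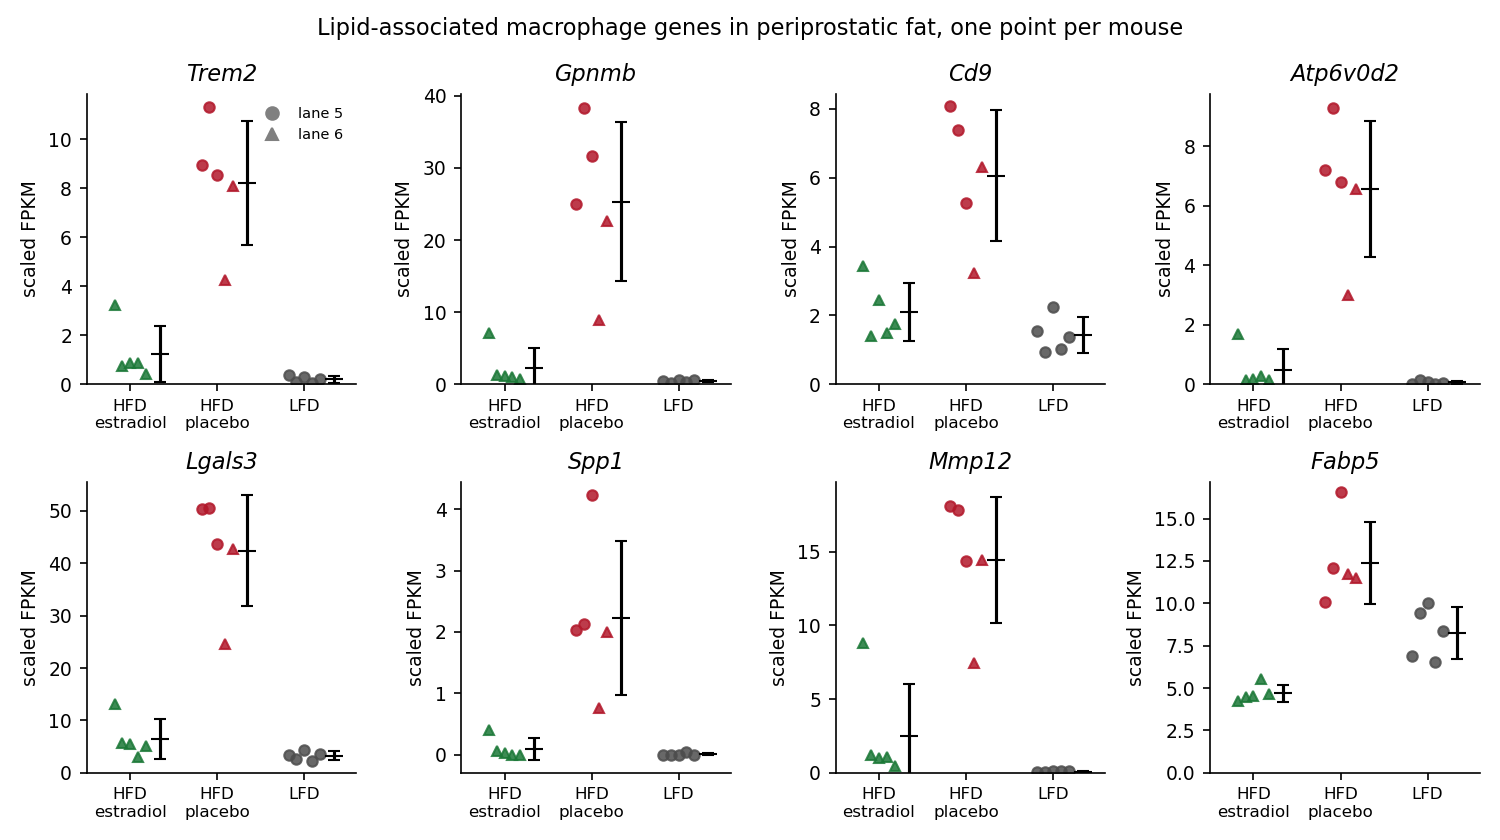
Scaled FPKM (linear axes, one panel per gene) of the 8 lipid-associated macrophage genes in HFD estradiol, HFD placebo and LFD. Each point is 1 mouse, circles lane 5 and triangles lane 6, and the bar beside each group is the mean ± SD (n = 5), with bars that reach below 0 cut at the axis except for Spp1. The HFD placebo mean is the highest in all panels, and HFD estradiol library 1 stands above the other HFD estradiol libraries in all panels but that of Fabp5.

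Trem2, the lipid-sensing receptor, was at 3.25, 0.760, 0.882, 0.852 and 0.411 scaled FPKM in HFD estradiol libraries 1 to 5, at 8.95, 11.3, 8.53, 4.26 and 8.09 in HFD placebo libraries, and at 0.389, 0.0945, 0.278, 0.0596 and 0.210 in LFD libraries. The 3 groups did not overlap, and HFD estradiol library 1 lay closest to the HFD placebo range. Means were 1.23 ± 1.15 in HFD estradiol, 8.23 ± 2.54 in HFD placebo and 0.206 ± 0.134 in LFD (SD, n = 5 each).

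Gpnmb, a transmembrane glycoprotein of lysosomes and the cell surface, was at 7.09, 1.33, 1.13, 1.06 and 0.668 scaled FPKM in HFD estradiol libraries 1 to 5, at 25, 38.4, 31.7, 8.95 and 22.6 in HFD placebo libraries, and at 0.461, 0.243, 0.553, 0.275 and 0.627 in LFD libraries. Again the groups did not overlap, with HFD estradiol library 1 just below HFD placebo library 4. Means were 2.26 ± 2.71 in HFD estradiol, 25.3 ± 11 in HFD placebo and 0.432 ± 0.169 in LFD (SD, n = 5 each).

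Cd9, a tetraspanin that organises membrane proteins, was at 3.42, 1.41, 2.46, 1.49 and 1.74 scaled FPKM in HFD estradiol libraries 1 to 5, at 8.09, 7.38, 5.27, 3.24 and 6.32 in HFD placebo libraries, and at 1.53, 0.939, 2.26, 1.02 and 1.39 in LFD libraries. HFD estradiol library 1 lay above HFD placebo library 4, and the HFD estradiol and LFD ranges overlapped. Cd9 spanned the smallest range of the surface proteins, with means of 2.10 ± 0.845 in HFD estradiol, 6.06 ± 1.91 in HFD placebo and 1.43 ± 0.525 in LFD (SD, n = 5 each).

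Atp6v0d2 encodes the form of the d subunit of the proton pump (V-ATPase) that is abundant in osteoclasts and macrophages. It was at 1.70, 0.132, 0.165, 0.286 and 0.148 scaled FPKM in HFD estradiol libraries 1 to 5, at 7.21, 9.30, 6.80, 2.99 and 6.55 in HFD placebo libraries, and at 0, 0.151, 0.0830, 0.0237 and 0.0557 in LFD libraries. All HFD placebo values were above all others, and HFD estradiol libraries 2 and 5 were within the LFD range. The LFD values rest on 0 to 4.05 estimated fragments per library, against 331 to 1690 in HFD placebo. Means were 0.487 ± 0.683 in HFD estradiol, 6.57 ± 2.28 in HFD placebo and 0.0627 ± 0.0585 in LFD (SD, n = 5 each).

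Lgals3, or galectin-3, is a lectin that binds β-galactosides and gathers on damaged lysosomes. It was at 13.1, 5.64, 5.46, 3.06 and 5.15 scaled FPKM in HFD estradiol libraries 1 to 5, at 50.4, 50.5, 43.8, 24.5 and 42.7 in HFD placebo libraries, and at 3.41, 2.62, 4.38, 2.32 and 3.66 in LFD libraries. The HFD placebo values stood apart from both other groups, and HFD estradiol library 4 lay within the LFD range. Means were 6.49 ± 3.85 in HFD estradiol, 42.4 ± 10.6 in HFD placebo and 3.28 ± 0.824 in LFD (SD, n = 5 each).

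Mmp12, the macrophage elastase, was at 8.79, 1.18, 1.03, 1.04 and 0.489 scaled FPKM in HFD estradiol libraries 1 to 5, at 18.1, 17.8, 14.4, 7.43 and 14.5 in HFD placebo libraries, and at 0.0394, 0.0770, 0.0941, 0.113 and 0.0946 in LFD libraries. HFD estradiol library 1 exceeded HFD placebo library 4, and every LFD value was below every HFD value. Means were 2.51 ± 3.52 in HFD estradiol, 14.4 ± 4.30 in HFD placebo and 0.0836 ± 0.0278 in LFD (SD, n = 5 each).

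Spp1, or osteopontin, is a secreted ligand of integrins and of Cd44. It was at 0.408, 0.0568, 0.0219, 0 and 0 scaled FPKM in HFD estradiol libraries 1 to 5, at 2.04, 2.12, 4.23, 0.757 and 2.00 in HFD placebo libraries, and at 0, 0, 0, 0.0440 and 0 in LFD libraries. The HFD placebo values were all above the rest, and the single LFD value above 0 corresponds to 1.05 estimated fragments. Spp1 did not reach the level set for testing, 1 or more scaled FPKM in 5 or more libraries, since 4 HFD placebo libraries reached 1.

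Fabp5, a fatty acid-binding protein, had another pattern. It was at 4.23, 4.46, 4.54, 5.54 and 4.66 scaled FPKM in HFD estradiol libraries 1 to 5, at 10.1, 12.1, 16.5, 11.7 and 11.5 in HFD placebo libraries, and at 6.89, 9.46, 10.0, 6.52 and 8.38 in LFD libraries. No groups overlapped, HFD placebo was highest and HFD estradiol, not LFD, was lowest. Means were 4.68 ± 0.503 in HFD estradiol, 12.4 ± 2.44 in HFD placebo and 8.25 ± 1.54 in LFD (SD, n = 5 each).

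The order of levels, which FPKM gives per length of transcript, differed between groups. In HFD estradiol the order by mean was Lgals3, Fabp5, Mmp12, Gpnmb, Cd9, Trem2, Atp6v0d2 and Spp1. Mmp12 was above Gpnmb, and Gpnmb above Cd9, in 1 of 5 HFD estradiol libraries each, so that part of the order rests on library 1. In HFD placebo the order was Lgals3, Gpnmb, Mmp12, Fabp5, Trem2, Atp6v0d2, Cd9 and Spp1. The neighbours Mmp12 and Fabp5, and likewise Atp6v0d2 and Cd9, kept that order in 3 of 5 HFD placebo libraries. In LFD the order was Fabp5, Lgals3, Cd9, Gpnmb, Trem2, Mmp12, Atp6v0d2 and Spp1, and the first 5 kept it in every LFD library.

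The 8 genes summed to 19.9 ± 12.4 scaled FPKM in HFD estradiol, 118 ± 32.5 in HFD placebo and 13.8 ± 2.65 in LFD (SD, n = 5 each). Fabp5 made up 29.1 ± 11.8% of that sum in HFD estradiol, 11.4 ± 4.33% in HFD placebo and 60.3 ± 6.11% in LFD. Lgals3 made up 33.1 ± 6.38% in HFD estradiol, 36.4 ± 2.55% in HFD placebo and 23.7 ± 2.96% in LFD. Gpnmb and Mmp12 together with Lgals3 took most of the sum in HFD placebo, while in LFD Gpnmb held 3.11 ± 0.970% and Mmp12 0.631 ± 0.286%. The sum is therefore set by different genes in different groups.

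**Figure D2:**
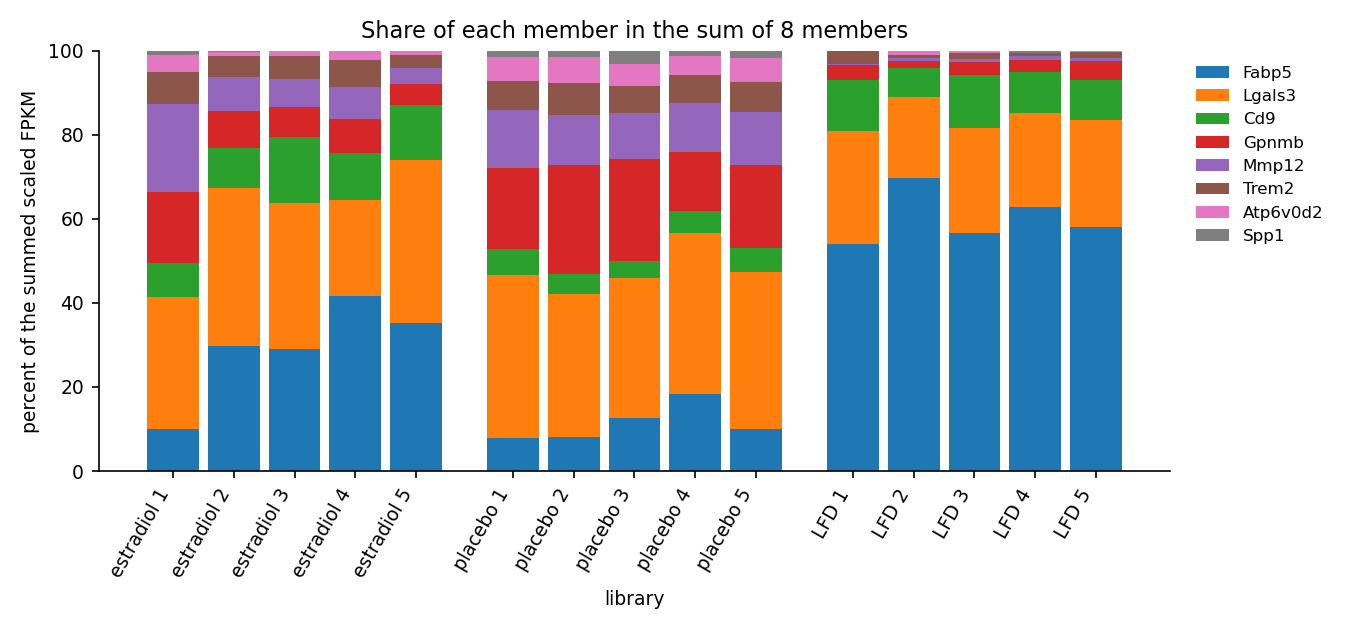
Percent of the summed scaled FPKM of the 8 genes taken by each gene (stacked colours) in each library, with HFD estradiol, HFD placebo and LFD from left to right. Fabp5 takes 54.1 to 69.7% in LFD libraries and 7.78 to 18.3% in HFD placebo libraries, and HFD estradiol library 1, at 10.1%, resembles the HFD placebo libraries in that share.

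The first comparison asked how the high-fat diet with a placebo implant differed from the low-fat diet. In limma, a linear model fitted across all tested genes on log2(scaled FPKM + 1), Gpnmb had the largest rise of the 8 genes, by 4.07 on the log2 scale in HFD placebo over LFD (SE 0.39, adjusted p = 1.4e-06). Mmp12 rose by 3.78 (SE 0.38, adjusted p = 2.0e-06) and Lgals3 by 3.32 (SE 0.27, adjusted p = 4.9e-07) in the same fit. Trem2 rose by 2.89 (SE 0.25) and Atp6v0d2 by 2.77 (SE 0.24), both with a limma adjusted p of 7.8e-07. Cd9 rose by 1.52 (SE 0.21, limma adjusted p = 3.3e-05) and Fabp5 by 0.53 (SE 0.13, limma adjusted p = 0.0034), the smallest of these changes. These folds understate the change of genes near 0, because of the 1 added before taking logs.

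All 7 genes that reached the tested level were called higher in HFD placebo, where 21.3% of the 5615 tested genes were called higher and 22% lower. For all 7 and for Spp1 every HFD placebo value was above every LFD value, as for 14.6% of tested genes. Gpnmb, Trem2, Mmp12 and Atp6v0d2 reached 1 in no LFD library, so they could be tested only because they were high elsewhere, and their count is no support. Spp1, below the tested level, was higher by 2.22 scaled FPKM in HFD placebo than in LFD (exact two-sided permutation test, p = 0.0079, the smallest that 5 against 5 can give). Within lane 5, with 3 HFD placebo and 5 LFD libraries, all 7 rises were still called, Fabp5 with the highest limma adjusted p, 0.0277.

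The second comparison asked what estradiol changed in mice on the high-fat diet. Gpnmb fell by 3.16 on the log2 scale in HFD estradiol relative to HFD placebo (SE 0.39, limma adjusted p = 2.5e-05). Lgals3 fell by 2.62 (SE 0.27, limma adjusted p = 6.8e-06), Mmp12 by 2.48 (SE 0.38, adjusted p = 1.5e-04) and Atp6v0d2 by 2.38 (SE 0.24, adjusted p = 6.8e-06). Trem2 fell by 2.11 (SE 0.25, limma adjusted p = 2.0e-05). Fabp5 fell by 1.22 (SE 0.13, limma adjusted p = 8.2e-06) and Cd9 by 1.18 (SE 0.21, limma adjusted p = 5.4e-04), so the change of Fabp5 was small but well separated from the spread between mice. All 7 were called lower, where 16% of tested genes were called lower and 14.3% higher. Since Gpnmb, Trem2, Mmp12 and Atp6v0d2 reached the tested level only through HFD placebo, this count is no support either. For 5 of the 7, all but Cd9 and Mmp12, every HFD estradiol value was below every HFD placebo value, as for 11.2% of tested genes.

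Spp1 was lower by 2.13 scaled FPKM in HFD estradiol than in HFD placebo (exact two-sided permutation test, p = 0.0079). Lane and group are partly tied in this comparison: the 2 HFD placebo libraries on lane 6 averaged lower than the 3 on lane 5 for every one of the 8 genes, for example 15.8 against 31.7 scaled FPKM for Gpnmb and 11.6 against 12.9 for Fabp5. This order rests on the scaling factors: on FPKM as deposited the lane 6 libraries averaged higher for all 8 genes, for example 47.3 against 27.8 for Gpnmb and 35.6 against 12.1 for Fabp5. Within lane 6, with 5 HFD estradiol and 2 HFD placebo libraries, 5 of the 7 falls were still called. Mmp12 (a log2 difference of -2.10, limma adjusted p = 0.12) and Cd9 (-0.88, adjusted p = 0.0701) were not. With lane as a term over all libraries all 7 were called. The estimates are then the same lane 6 contrast, with a median log2 difference of -1.98 over the 7 genes in both settings. These calls are therefore no separate support.

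The third comparison set the HFD estradiol mice against the LFD mice. Mmp12 was higher in HFD estradiol by 1.29 on the log2 scale (SE 0.38, limma adjusted p = 0.0480), and Fabp5 fell by 0.69 (SE 0.13, limma adjusted p = 0.0038). So 1 of 7 tested genes was called higher and 1 lower, where 3.95% and 3.74% of all tested genes were called in these directions. Neither call is firm. Mmp12 did not pass in 16 of 24 alternative settings. For Fabp5 the log2 difference was 0.014 on FPKM as deposited and -0.35 with each library set to the same FPKM sum (limma adjusted p = 0.191). With lane as a term it was -0.58 (limma adjusted p = 0.179). The lane term is estimated only from the HFD placebo libraries, 3 on lane 5 and 2 on lane 6. It cannot separate lane from group in this pair, so nothing is read from it.

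The other 5 tested genes were not called in this comparison. Their log2 differences of HFD estradiol over LFD were 0.91 for Gpnmb (SE 0.39, limma adjusted p = 0.179), 0.78 for Trem2 (SE 0.25, adjusted p = 0.0742) and 0.70 for Lgals3 (SE 0.27, adjusted p = 0.132). Atp6v0d2 differed by 0.39 (SE 0.24, limma adjusted p = 0.369) and Cd9 by 0.34 (SE 0.21, adjusted p = 0.371). Trem2 was called under some alternatives, with limma differences of 1.92 at a pseudocount of 0.1 (adjusted p = 0.0116), 1.12 at 0.5 (adjusted p = 0.0356) and 0.94 with each library set to the same FPKM sum (adjusted p = 0.0484). It was also called without HFD placebo library 4 (limma adjusted p = 0.0375) and without HFD estradiol library 5 (0.0425). Lgals3 was called with the same FPKM sum, by 1.02 (limma adjusted p = 0.0218). Gpnmb, Trem2 and Mmp12 nevertheless had every HFD estradiol value above every LFD value, where 4.2% of tested genes showed such a gap upwards, and Fabp5 had every HFD estradiol value below, where 3.85% did. For Trem2 this gap was narrow and rests on the scaling factors. HFD estradiol library 5 was at 0.411 and LFD library 1 at 0.389, but at 0.251 and 0.300 on FPKM as deposited. The gap of Fabp5 rests on the scaling factors as well, and its HFD estradiol and LFD values overlapped on FPKM as deposited. Spp1 differed by 0.0885 scaled FPKM (exact two-sided permutation test, p = 0.29). All HFD estradiol libraries were on lane 6 and all LFD libraries on lane 5, so lane and group cannot be told apart within this pair.

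**Figure D3:**
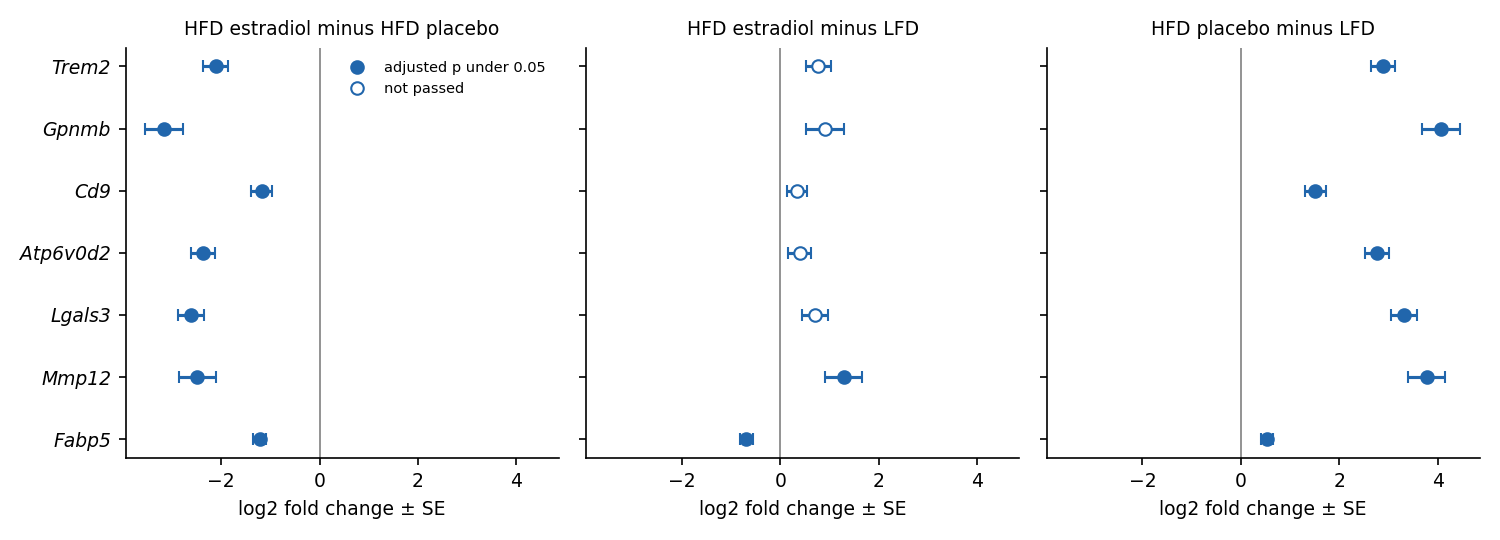
Log2 fold changes ± SE from limma for the 7 tested genes in HFD estradiol minus HFD placebo, HFD estradiol minus LFD and HFD placebo minus LFD, filled where the adjusted p is under 0.05. Gpnmb is the farthest from 0 in the comparisons with HFD placebo (-3.16 and 4.07), and Fabp5 is the only gene below 0 in HFD estradiol minus LFD (-0.69).

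HFD estradiol library 1 had the highest value of its group for 7 of 8 genes and the lowest for Fabp5. Without it the log2 difference of HFD estradiol from HFD placebo was called for all 7 tested genes. Against LFD, the difference without that library was 0.50 for Gpnmb and 0.80 for Mmp12, and Mmp12 was still called. HFD placebo library 4 had the lowest value of its group for 7 of 8 genes on scaled FPKM. On FPKM as deposited it was at 28.9 for Gpnmb and 13.8 for Trem2, because its scaling factor was 3.23.

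General macrophage transcripts moved in the same directions. Of 11 tested pan-macrophage markers 10 rose in HFD placebo relative to LFD, 10 fell in HFD estradiol relative to HFD placebo, and 3, the complement genes C1qa, C1qb and C1qc, rose in HFD estradiol relative to LFD. The shares of all tested genes called in these directions were 21.3%, 16% and 3.95%. The summed level of the 13 markers was 78.1 to 188 scaled FPKM in HFD estradiol, 182 to 546 in HFD placebo and 52.5 to 130 in LFD. Without HFD estradiol library 1 none of them was called in HFD estradiol against LFD. To set the lipid-associated genes against them, a pan-macrophage index was subtracted in each library, the mean log2(scaled FPKM + 1) of Csf1r, Cd14, Lyz2, Laptm5, Fcer1g, C1qa, C1qb, C1qc and Mpeg1. The index was 3.02 ± 0.387 in HFD estradiol, 4.25 ± 0.465 in HFD placebo and 2.59 ± 0.273 in LFD (SD, n = 5 each).

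Relative to the index, Gpnmb was still higher in HFD placebo than in LFD by 2.41 on the log2 scale (adjusted p = 4.6e-05), Mmp12 by 2.11 (adjusted p = 6.5e-05) and Lgals3 by 1.66 (adjusted p = 4.6e-05). Trem2 was higher by 1.23 (adjusted p = 8.5e-05) and Atp6v0d2 by 1.11 (adjusted p = 4.8e-04). These p-values are from limma's linear model without moderation across genes, since all genes share the noise of the index and the moderated p-values come out too small. Fabp5 was lower relative to the index, by a log2 difference of -1.13 (limma without moderation, adjusted p = 0.0013). Cd9 differed from it by -0.15 (limma without moderation, adjusted p = 0.527). Among all tested genes 0.499% were called higher and 97.3% lower, so the fall of Fabp5 is what most genes showed. With this many calls the adjustment adds little to the larger p-values. In limma without moderation the unadjusted p was 5.3e-05 for Trem2, 4.2e-04 for Atp6v0d2 and 0.0012 for Fabp5. Of the 5 called higher, all but Lgals3 reached the tested level only because they were high in HFD placebo, and nothing is read from their count.

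In HFD estradiol against HFD placebo the same 5 genes fell more than the index. Gpnmb fell by 1.93 relative to it (adjusted p = 6.7e-04), Lgals3 by 1.39 (adjusted p = 6.7e-04) and Mmp12 by 1.25 (adjusted p = 0.0030), in limma without moderation. Atp6v0d2 fell by 1.15 (adjusted p = 7.9e-04) and Trem2 by 0.88 (adjusted p = 0.0013) in that fit. Among all tested genes 0.588% were called lower, and nothing is read from the count of 5, since all but Lgals3 reached the tested level only through HFD placebo. Cd9 and Fabp5 differed from the index by 0.06 and 0.01 (limma without moderation, adjusted p = 0.813 and 0.971), and with Csf1r alone as the index these differences were -0.57 and -0.61 and were called in the moderated limma fit (adjusted p = 0.0436 and 0.0429).

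In HFD estradiol against LFD, none of the 7 genes was called relative to the index by limma without moderation, where 0.0356% of tested genes were called higher and 0.089% lower. At an unadjusted p under 0.05 Mmp12 (0.86, adjusted p = 0.221) and Fabp5 (-1.12, adjusted p = 0.174) would pass in that fit, and the moderated fit called these 2, where it called 0.232% of tested genes higher and 2.94% lower. With the pseudocount of 1, the levels of the 5 remaining genes in HFD estradiol were within 0.48 of LFD relative to the index on the log2 scale. That closeness depends on the pseudocount. At 0.1 the moderated limma fit called Gpnmb (1.18, adjusted p = 0.0121) and Trem2 (1.43, adjusted p = 8.6e-04) higher. In that fit Atp6v0d2 differed by 0.89 (adjusted p = 0.118) and Cd9 by 0.025.

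**Figure D4:**
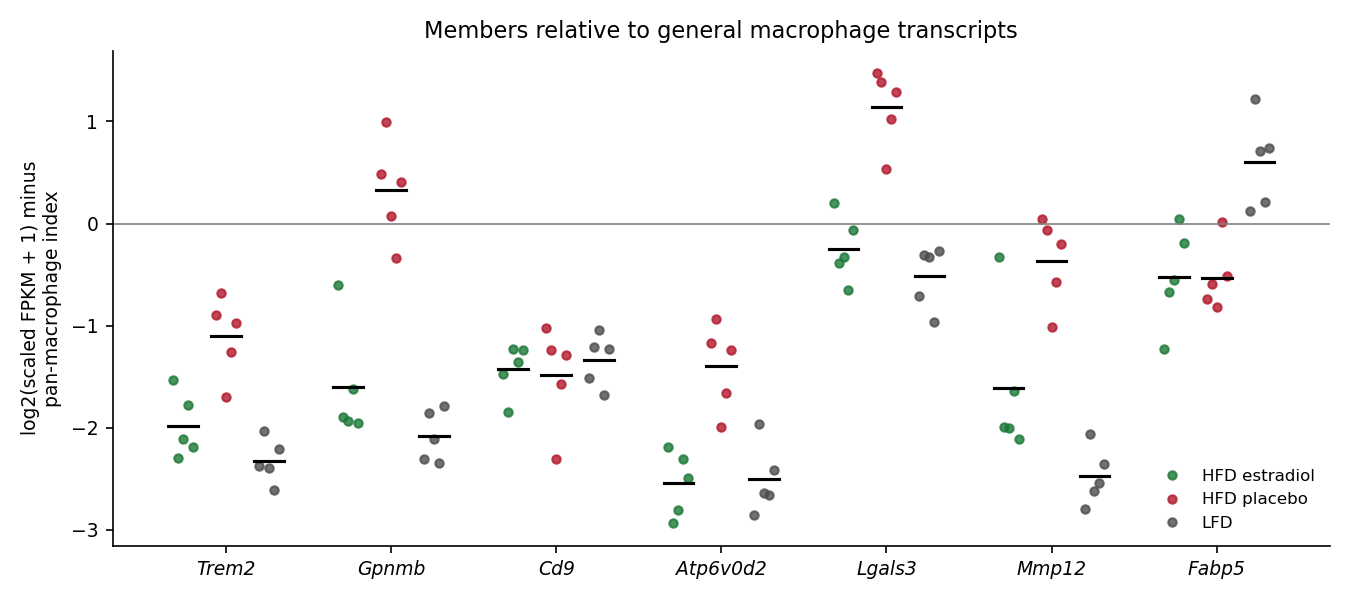
Log2(scaled FPKM + 1) of the 7 tested genes minus the pan-macrophage index of the same library, with 1 point per mouse and a bar at each group mean, for HFD estradiol, HFD placebo and LFD from left to right within each gene. For Gpnmb the means are -1.60 in HFD estradiol, 0.33 in HFD placebo and -2.08 in LFD, while for Cd9 they are -1.43, -1.48 and -1.34 in the same groups.

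Members varied together between mice of one group. Each value was centred on its group mean on the log2 scale and all 28 pairs were correlated over 15 libraries, with p-values from 100000 permutations within groups. All 15 pairs among Gpnmb, Trem2, Cd9, Lgals3, Mmp12 and Atp6v0d2 passed at an adjusted p under 0.05 for Pearson's r, which ran from 0.688 to 0.971. By Pearson's r Gpnmb and Trem2 were the closest pair (r = 0.971, adjusted permutation p = 0.0032, and Spearman's rho = 0.879, adjusted permutation p = 0.015). Without HFD placebo library 4 and HFD estradiol library 1, the 2 farthest from the median for Gpnmb, their r was 0.772. By Spearman's rho Mmp12 with Atp6v0d2 was closer (rho = 0.896, adjusted permutation p = 0.038), and so was Gpnmb with Lgals3.

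Much of this covariation rests on these few mice. For each pair r was computed again without the 2 libraries farthest from the median for its first gene, in the order of the opening list. It was then under 0.5 in 8 of the 15 pairs, from 0.123 for Cd9 and Atp6v0d2 to 0.939 for Mmp12 and Atp6v0d2. The libraries left out differ between pairs, so these values are not on one footing. HFD placebo library 4 stayed in for Lgals3 with Mmp12, Lgals3 with Atp6v0d2 and Mmp12 with Atp6v0d2. Without HFD estradiol library 1 alone, r ran from 0.617 to 0.935 over the 15 pairs. Of 6 pairs of Spp1 with these genes 3 passed by Pearson's r, which ran from 0.452 to 0.745, and 5 by Spearman's rho. With 2 libraries left out in the same way r of these pairs ran from -0.435 to 0.978. The highest, for Spp1 with Mmp12, left out HFD placebo libraries 3 and 4 and kept HFD estradiol library 1. None of the 7 pairs of Fabp5 passed, with r from -0.171 to 0.328, so Fabp5 did not track the others between mice. The libraries share the scaling factor and the lane as well as the group, and the part of these in the covariation was not tested.

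**Figure D5:**
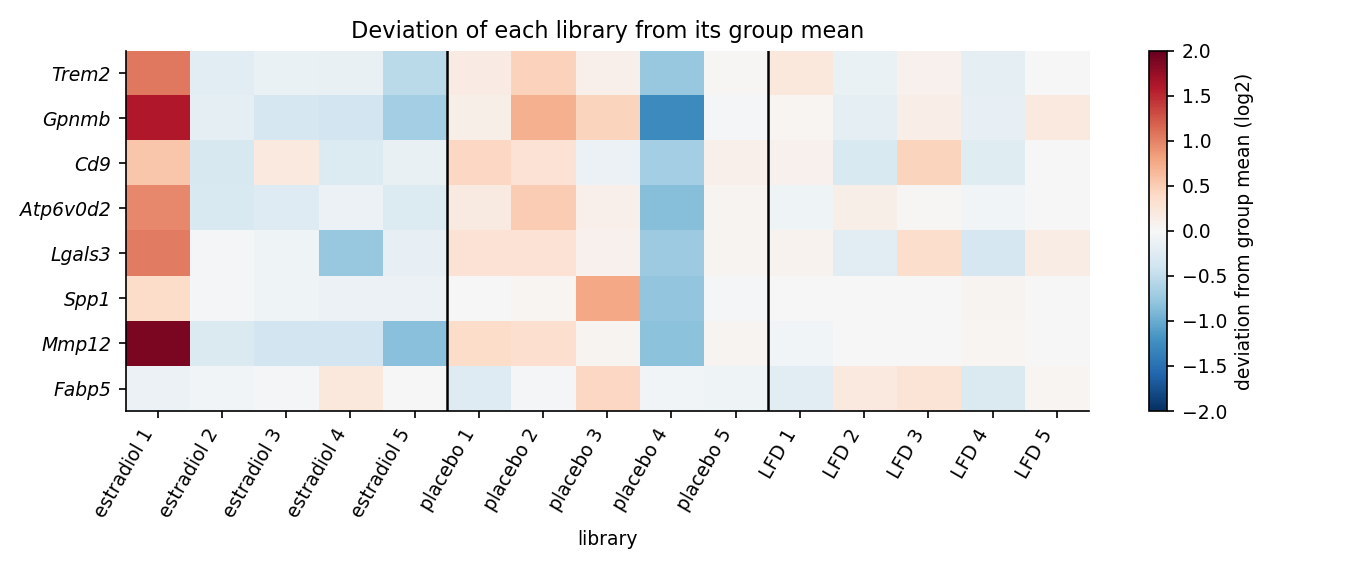
Deviation of each library from its group mean in log2(scaled FPKM + 1) for the 8 genes (rows) in HFD estradiol, HFD placebo and LFD libraries (columns, divided by lines), red above and blue below the mean. HFD estradiol library 1 is red in every row but that of Fabp5, and HFD placebo library 4 is blue in every row.

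The tested genes most like these by r with their mean z-score over 15 libraries were Tlr13, Itgax, Adam8, Slc37a2, Lipa, Atf3, Pld3, Rgs1, Arhgap25 and Ccl9, with r from 0.985 to 0.991, a value that the group differences largely set. By r of deviations from the group means, the most like were Pld3, Cd68, Renbp, Dpep2, Itgax, Adam8, Dnase2a, Rps15a-ps6, Lilrb4 and Soat1, with r from 0.913 to 0.936. Adam8, Itgax and Pld3 were in both lists. Rps15a-ps6 is a copy of a ribosomal protein gene and its value is uncertain.

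Of 21 tested genes in a list of other lipid-associated macrophage genes, 17 rose in HFD placebo relative to LFD and 2 fell, with a median log2 difference of 1.56 against -0.01 over all tested genes. Over all tested genes 21.3% were called higher and 22% lower in this comparison. In HFD estradiol relative to HFD placebo the shares were 14.3% and 16%, and relative to LFD 3.95% and 3.74%. The same shares are the background of every list count from here on. The lysosomal glycoprotein Cd68 was at 31.6 ± 10.2 scaled FPKM in HFD placebo and 2.73 ± 0.658 in LFD (SD, n = 5 each, log2 difference 3.08, limma adjusted p = 4.3e-07). Cstb, a cathepsin inhibitor, differed by 1.83, Lipa, the lysosomal acid lipase, by 2.12, and the lysosomal nuclease Pld3 by 1.92. The lipoprotein gene Apoe and the lipase gene Lpl fell by 0.50 and 0.65, and Cd36 and Lgals1 were not called (0.17 and 0.30). Apoe, Lpl, Cd36 and Lgals1 are also made by adipocytes or other stromal cells, and are named after their values were seen. Some list genes reached the tested level only through HFD placebo. Itgax, for example, averaged 0.559 scaled FPKM in HFD estradiol, 3.96 in HFD placebo and 0.178 in LFD. The list counts are therefore no independent support.

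In HFD estradiol relative to HFD placebo 18 of the 21 fell and 1 rose, with a median of -1.36 against 0.01 over all tested genes. Plin2, a lipid-droplet coat protein, was at 14.0 ± 1.19 scaled FPKM in HFD estradiol and 45.3 ± 3.06 in HFD placebo (SD, n = 5 each, log2 difference -1.63, limma adjusted p = 2.1e-06). Cstb fell by 1.55, Lipa by 1.75 and the protease gene Ctsd by 1.19. Apoe was the gene that rose, by 0.46, and it was not called without HFD placebo library 3, without HFD placebo library 4 or without HFD estradiol library 1. In HFD estradiol against LFD, Cd68 rose by 0.90 and Lpl fell by 0.61, and no other gene of the list was called. Without HFD estradiol library 1 Cd68 was not called, and without HFD placebo library 4, 2 genes of the list rose.

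Around Trem2, 4 of 6 tested genes of its signalling and shedding rose in HFD placebo relative to LFD and 1 fell. The adaptor Tyrobp, through which Trem2 signals, was at 29.1 ± 8.82 scaled FPKM in HFD placebo and 3.57 ± 1.03 in LFD (SD, n = 5 each, log2 difference 2.70). The phosphatase gene Inpp5d, the sheddase gene Adam17 and the kinase gene Syk rose by 0.81, 0.55 and 0.79, and the ligand gene Apoe was the one that fell. Tyrobp and Apoe are also counted among the other lipid-associated macrophage genes above. In HFD estradiol relative to HFD placebo 5 of the 6 fell, Tyrobp with a log2 difference of -1.99, and Apoe rose. None of the 6 was called in HFD estradiol against LFD, where Tyrobp differed by 0.71 (limma adjusted p = 0.12).

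Of 7 tested receptors and partners of Spp1, Gpnmb and Lgals3, 6 rose in HFD placebo relative to LFD, 7 fell in HFD estradiol relative to HFD placebo, and none was called in HFD estradiol against LFD. Cd44, a receptor of osteopontin, was at 0.876 ± 0.318 scaled FPKM in HFD estradiol, 4.73 ± 1.25 in HFD placebo and 0.989 ± 0.232 in LFD (SD, n = 5 each). The integrin genes Itgav and Itgb1 rose by 0.43 and 0.42 and fell by 0.29 and 0.42 in these comparisons. The syndecan gene Sdc4 rose by 0.48 and fell by 0.45.

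Of 16 tested V-ATPase subunits and accessory proteins other than Atp6v0d2, 12 rose in HFD placebo relative to LFD, with a median of 0.50, and 11 fell in HFD estradiol relative to HFD placebo, with a median of -0.46. The changes were smaller than that of Atp6v0d2. Atp6v0a1 rose by 1.14 and fell by 1.05, Atp6v1b2 rose by 1.12 and fell by 1.02, and Atp6v1a rose by 0.77 and fell by 0.72 in these comparisons. Tcirg1, another a subunit of the pump, rose by 1.37. None of the 16 was called in HFD estradiol against LFD.

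Of 9 tested transcription factors of lysosomal and lipid-loaded macrophages, 4 rose in HFD placebo relative to LFD and 1 fell, and in HFD estradiol relative to HFD placebo 4 fell and 2 rose. Spi1, the gene of PU.1, was at 1.23 ± 0.486 scaled FPKM in HFD estradiol, 4.57 ± 2.08 in HFD placebo and 0.915 ± 0.409 in LFD (SD, n = 5 each). Mitf, a factor of lysosomal genes, rose by 0.53 in HFD placebo relative to LFD and fell by 0.33 in HFD estradiol relative to HFD placebo. The adipocyte factor gene Pparg went the other way, at 14.1 ± 2.59 scaled FPKM in HFD estradiol, 9.40 ± 2.13 in HFD placebo and 18.7 ± 4.77 in LFD (SD, n = 5 each). None of the 9 was called in HFD estradiol against LFD. Without HFD placebo library 3 none rose with estradiol, and without library 4 it was 1.

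Of 28 relatives of the 8 genes by protein family 11 were tested, 4 of which rose and 3 fell in HFD placebo relative to LFD, and 2 rose and 2 fell in HFD estradiol relative to HFD placebo. Fabp4, the adipocyte relative of Fabp5, was at 1061 ± 175 scaled FPKM in HFD estradiol and 743 ± 157 in HFD placebo (SD, n = 5 each, log2 difference 0.52, limma adjusted p = 0.042), the opposite direction to Fabp5. Lgals12, an adipocyte galectin, fell by 1.15 in HFD placebo relative to LFD and rose by 0.74 with estradiol. The leukocyte tetraspanin gene Cd53 rose by 1.37 and fell by 1.17, as Cd9 did in sign. Mmp2, a stromal gelatinase, rose by 1.24 in HFD placebo relative to LFD and was also called higher in HFD estradiol against LFD, by 1.09 (limma adjusted p = 0.0012). In HFD placebo relative to LFD 1 fell without HFD placebo library 3. In HFD estradiol relative to HFD placebo 1 rose without HFD placebo library 3, 4 fell without library 4, and 4 rose and 3 fell without HFD estradiol library 1.

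Most markers of resident macrophages went against the 8 genes in HFD estradiol relative to HFD placebo. In HFD placebo relative to LFD 2 of them rose with the 8 genes. In HFD estradiol relative to HFD placebo 4 of 6 tested rose, Cd163 by 0.61, Cbr2 by 0.65, F13a1 by 0.58 and Lyve1 by 0.54, and none fell. Without HFD placebo library 3, 1 of the 6 rose, without library 4 2 rose and 1 fell, and without HFD estradiol library 1 2 rose. In HFD placebo relative to LFD Mrc1 and Folr2 rose, by 0.97 and 1.39, and with estradiol they differed from HFD placebo by -0.20 and -0.47 (limma adjusted p = 0.317 and 0.114). In HFD estradiol relative to LFD 5 of 6 rose, among them Mrc1 by 0.77 and Cbr2 by 1.02.

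Markers of some other cells moved with the comparisons too, and others did so little or not at all. None of 4 tested mast cell markers was called in any comparison. Of 6 endothelial markers 2 fell in HFD placebo relative to LFD and 1 rose in HFD estradiol relative to HFD placebo. Of 3 tested monocyte markers 1 rose in the first of these comparisons and 1 fell in the second. No endothelial or monocyte marker was called in HFD estradiol against LFD. Ctsk, shared by osteoclasts and macrophages, was at 1.24 ± 0.599 scaled FPKM in HFD estradiol, 6.64 ± 2.44 in HFD placebo and 0.401 ± 0.283 in LFD (SD, n = 5 each). The osteoclast phosphatase gene Acp5 did not follow it, with 9.19 ± 1.02 in HFD estradiol, 7.27 ± 1.74 in HFD placebo and 10.9 ± 1.83 in LFD (SD, n = 5 each), and it fell in HFD placebo relative to LFD by 0.54 on the log2 scale (limma adjusted p = 0.0050). The osteoclast receptor gene Calcr was listed at 0 in all 15 libraries. Dcstamp and Ocstamp, also osteoclast markers, were near 0 but highest in HFD placebo. Dcstamp averaged 0.0417 in HFD estradiol, 0.175 in HFD placebo and 0.0502 in LFD, and Ocstamp 0.0134, 0.0412 and 0.0145. The 4 neutrophil markers summed to 0.536 to 0.900 scaled FPKM in HFD estradiol, 3.26 to 5.43 in HFD placebo and 0.367 to 2.94 in LFD. S100a8 made up most of that sum in HFD placebo, with a mean of 3.73. S100a9 averaged 0.0963 in HFD estradiol, 0.0669 in HFD placebo and 0.156 in LFD. Retnlg was listed at 0 in HFD estradiol and averaged 0.0223 in HFD placebo and 0.107 in LFD. Csf3r was highest in HFD placebo, with means of 0.215 in HFD estradiol, 0.356 in HFD placebo and 0.124 in LFD. The 4 proliferation genes summed to 0.344 to 0.578 in HFD estradiol, 2.53 to 5.43 in HFD placebo and 0.371 to 0.712 in LFD. Of 7 adipocyte markers 6 fell and 1 rose in HFD placebo relative to LFD, and 5 rose and 1 fell in HFD estradiol relative to HFD placebo. The one that went with the 8 genes was the leptin gene Lep, at 26.4 ± 6.86 scaled FPKM in HFD estradiol, 53.0 ± 7.67 in HFD placebo and 23.1 ± 7.10 in LFD (SD, n = 5 each). The sum of the 7 was 787 to 1063 in HFD estradiol, 282 to 480 in HFD placebo and 804 to 1315 in LFD, and much of it was adipsin (Cfd), which averaged 514 in HFD estradiol, 49.4 in HFD placebo and 711 in LFD. Lep and Cfd are named after their values were seen. The part of these in the values of the 8 genes was not tested.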

How the data were processed

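The authors deposited FPKM by gene symbol for each library of periprostatic fat, naming STAR, Cufflinks and mm10 in the submitters' processing notes. Versions and annotation are not given in the sources used here. Total RNA was depleted of ribosomal RNA and sequenced as stranded libraries, per the labels. The 8 genes and the lists were chosen with earlier results of these data known.

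FPKM were divided by median-of-ratios factors computed over 5874 genes that no library lists at 0 and whose mean is 1 or more. Without this step the median of all tested genes is 0.77 on the log2 scale for HFD placebo over LFD, -0.27 for HFD estradiol over HFD placebo and 0.49 for HFD estradiol over LFD. log2(scaled FPKM + 1) of the 5615 genes that reached 1 in 5 libraries went into limma 3.58.1 (R 4.3.3), with trend and robust moderation, group as the only factor, and Benjamini-Hochberg adjustment over these genes at 0.05. The procedure was tested on simulated data. Spp1, not among them, was tested on scaled FPKM by exact permutation, two-sided.

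Depth was estimated from 1636 single-transcript genes, in which 59.4 to 70.0% of low values lay within 2% of whole multiples of 1 unit. These estimates give no interval. The index fits without moderation and the list counts without libraries were chosen after seeing the data. Replicate numbers name different mice and did not pair libraries. Lanes are from the names of the deposited files. Genes named from the lists are up to 4 with the smallest p in HFD placebo minus LFD and in HFD estradiol minus HFD placebo, and others are named after their values were seen. Of the list genes Ly6g was not matched and Adgre1 was matched as Emr1. One gene of the lists is not reported here by name.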

Additional observations from a re-analysis of the deposited data

Results flagged for a closer look

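HFD estradiol library 1 stood apart from the other 4 HFD estradiol libraries for 6 genes, in that its gap to the nearest value exceeded Dixon's 95% critical share of the range, 0.71 for 5 samples. It was at 7.09 scaled FPKM for Gpnmb (next highest 1.33), 3.25 for Trem2 (0.882), 13.1 for Lgals3 (5.64), 8.79 for Mmp12 (1.18), 1.70 for Atp6v0d2 (0.286) and 0.408 for Spp1 (0.0568). Its pan-macrophage index was 3.62, the highest of its group, against 2.67 to 3.11 in the other HFD estradiol libraries, and the part of this in the result was not tested. LFD library 4 was at 0.0440 for Spp1 with the other LFD libraries listed at 0, a value of 1.05 estimated fragments. In all 7 of 24 gene and group combinations were beyond the critical value, 6 of them from 1 mouse. That value gives about 1 in 20 for independent combinations only if values are normally distributed. This was not tested for the scaled FPKM used here. With 4 of 5 values listed at 0, the Spp1 flag in LFD was fixed in advance.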

How the results depend on the processing

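Results are given as HFD estradiol or HFD placebo first and the group it is set against after it. For HFD placebo minus LFD and for HFD estradiol minus HFD placebo the 7 tested genes were called in the same direction under every alternative but within lane 6, where Cd9 and Mmp12 were not called. Among all tested genes, 2431 were called in HFD placebo minus LFD, 1706 in HFD estradiol minus HFD placebo and 432 in HFD estradiol minus LFD. For HFD estradiol minus HFD placebo the count was 276 on FPKM as deposited (4.71% of them higher, against 47.2%), 828 with a constant FPKM sum (31.3% higher), 2606 with no filter, 1052 with the stricter filter of 2 scaled FPKM, 711 with lane as a term and 681 within lane 6. For HFD placebo minus LFD it was 3908 with no filter and 1461 with the stricter filter, and 99.4% of the calls were higher on FPKM as deposited and 91.5% with a constant sum, against 49.2%. For HFD estradiol minus LFD it was 39 on FPKM as deposited (100% higher) and 162 with lane as a term, and with a constant sum 95% of calls were higher, against 51.4%.

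Of the 7 genes 2 were called in HFD estradiol minus LFD. The number was 1 on FPKM as deposited, 1 with no filter, 1 without trend and robust moderation and 0 with lane as a term, and 1 to 3 without single libraries. It was 3 with a pseudocount of 0.1 or 0.5, Trem2 in addition. Fabp5 there was 0.014 on FPKM as deposited. For HFD estradiol minus LFD the lane term is set by the HFD placebo libraries alone. Results with it, here and relative to the index, therefore do not test the calls. With the replicate number as a block 4 were called, Lgals3 (limma adjusted p = 0.0419) and Trem2 (0.046) in addition, and no other call of the 7 genes changed. The numbers do not pair libraries: correlations of same-numbered deviations ran from -0.21 to 0.36, and 0, 1 and 2 of 5 libraries correlated best with their own number in the comparisons in the order above.

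Relative to the pan-macrophage index, 2 genes were called in HFD estradiol minus LFD. The number was 4 with a pseudocount of 0.1, Gpnmb and Trem2 in addition. It was 1 with lane as a term, 0 without moderation and 1 to 2 without single libraries. Some differences changed sign. In HFD placebo minus LFD, Cd9 was 0.22 with Csf1r as the index, 0.10 with a pseudocount of 0.1 and -0.33 to 0.054 without single libraries. In HFD estradiol minus HFD placebo, Cd9 was -0.57 with Csf1r, -0.077 with a pseudocount of 0.1, -0.0024 with lane as a term and -0.15 to 0.18 without single libraries. With Csf1r this was called, as was Fabp5 at -0.61. Fabp5 was -0.27 with lane as a term and -0.13 to 0.21 without single libraries in that comparison. In HFD estradiol minus LFD, Atp6v0d2 was 0.89 with a pseudocount of 0.1, 0.041 with lane as a term and -0.13 to 0.11 without single libraries, and Cd9 was 0.025 with a pseudocount of 0.1 and -0.18 to 0.0099 without single libraries. The causes were not tested. Depth limits Spp1 and Atp6v0d2 in LFD, where values rest on a few fragments.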
